A study of Homo sapiens with 2 samples.

Results

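The genes described here encode both cytoplasmic actins (ACTB and ACTG1), the intermediate filament protein vimentin (VIM), the motor nonmuscle myosin heavy chain MYH9, the actin crosslinkers FLNA, ACTN1 and ACTN4, and the adhesion proteins TLN1 and VCL. These 9 genes were picked by name, and their sites were taken from a list of binding intervals of the splicing factor SF3B1. An interval was counted for a gene when the list gave it under that gene's NCBI number and its midpoint lay inside the gene's hg38 span. This gave 18 of the 1406 distinct intervals in the list, which has 1587 rows. The genes were chosen with earlier results of these data known, so the share of them that holds an interval is a description and no evidence about cytoskeletal genes.

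The data came from HITS-CLIP, a method that crosslinks RNA to protein with ultraviolet light, recovers the protein with an antibody and sequences the attached RNA as short tags. The only group was 2 biological replicates of MDA-231-LM2 cells, a human breast cancer line selected from MDA-MB-231 for growth in the lung, and the precipitation used an antibody to endogenous SF3B1. The extract protocol names another protein, SNRBP2, where the title and the antibody label name SF3B1. There was no input or control sample, and the authors called the intervals on the pooled tags of both libraries. Values therefore have no replicate error, the depth of each library is unknown, and no test over samples was possible. Transcript levels were not measured, so contact with SF3B1 and abundance of the RNA cannot be told apart in any result below.

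Actin is the protein of the thin filaments that give a cell its shape and drive its movement. Filaments are pulled by myosin, bundled by alpha-actinins and filamin, and tied at focal adhesions to integrins through talin and vinculin. Vimentin builds a separate filament network that is typical of mesenchymal cells and is abundant in invasive breast cancer lines. SF3B1 is a subunit of the U2 snRNP, the spliceosome particle that recognises the branch point upstream of a 3′ splice site, so its contacts are usually sought in introns near exon starts. No exon annotation or genome sequence was used here. The positions below are therefore given along the gene span, with no split into exons, introns and untranslated regions, and the bases under the intervals are not shown.

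Of the 9 genes, 8 held at least 1 interval and 5 held at least 2, whereas 5.27% of the 20056 protein-coding genes in RefSeq held at least 1 and 0.927% at least 2. At least 3 intervals lay in 3 of the 9 genes (ACTB, ACTG1 and MYH9), and in 0.244% of all protein-coding genes. FLNA, which crosslinks actin filaments into networks, held no interval. The list holds significant peaks only, so tags below the authors' threshold may exist in FLNA. The 18 intervals made up 1.28% of the distinct intervals and 1.24% of the summed heights, where the height is the authors' count of pooled tags at the top of a peak.

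ACTB, the gene of beta-actin, held 5 intervals along a span of 3454 nt (chr7:5527148-5530601), all on the minus strand. From its 5′ end they lay at chr7:5529206-5529249 with 11 tags, chr7:5528735-5528777 with 7 tags and chr7:5528561-5528603 with 14 tags. The last 2, each of 9 tags, lay at chr7:5527434-5527481 and chr7:5527263-5527302. The intervals thus formed a middle group of 3, at 39.8% to 58.5% of the span, and a pair close to the 3′ end, at 91.0% and 96.1%. The midpoints of that pair were 309.5 and 134.5 nt from the end of the gene. The tallest interval was in the middle group, and the interval nearest the 5′ end had its midpoint 1373.5 nt from it.

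The 5 intervals of ACTB were not equally secure. The deposited list expects a height of 0.17 tags for the gene, and the observed heights were 41.2 to 82.4 times that value. The deposited p-values were 1.00e-100 for the interval of 14 tags, 7.66e-09 for that of 11 tags and 2.48e-05 for both of 9 tags. The interval of 7 tags had a deposited p-value of 0.0491, near the highest in the whole list, 0.0499. It is the only one of the 18 that a limit of 0.01 would remove. The value 1.00e-100 is the lowest the list contains, and 269 of the 1406 intervals share it.

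ACTG1, the gene of gamma-actin, held 3 intervals in a span of 2829 nt (chr17:81509971-81512799), also on the minus strand. The interval nearest the 5′ end, chr17:81512356-81512401, had 11 tags, and the next, chr17:81511651-81511697, had 13. The third, chr17:81510330-81510367, had 22 tags and was the tallest of all 18. It lay at 86.7% of the span, 377.5 nt from the 3′ end, and 69 intervals in protein-coding genes (5.28%) were at least as tall. The height expected for ACTG1 was 0.38 tags, above the 0.17 of ACTB. The ratios of observed to expected height were 28.9, 34.2 and 57.9, beside 41.2 to 82.4 in ACTB. The deposited p-values were 2.10e-05, 2.41e-08 and 4.84e-10 in the same order.

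Heights in both actins ran from 7 to 22 tags, and the lowest interval of ACTG1 was as tall as the second tallest of ACTB. The summed heights were close, with 50 tags over 5 intervals in ACTB and 46 over 3 in ACTG1. Both genes held an interval at 39.8% of the span and at least 1 near the 3′ end, while an interval early in the gene, at 14.9%, occurred in ACTG1 alone. The 2 genes share most of their coding sequence. The deposited list is named for unique tags, but the sources used here do not say in what sense they are unique. If tags with several genomic matches were dropped, tags from identical stretches, or from processed copies of the actins, would be lost from both. RefSeq names 14 pseudogenes after ACTB and 21 after ACTG1, and none of these held an interval. The share of all pseudogenes with an interval was not counted, so this absence is not read as a result. How many tags of the actins, if any, were lost to identical stretches or copies was not tested.

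**Figure D1:**
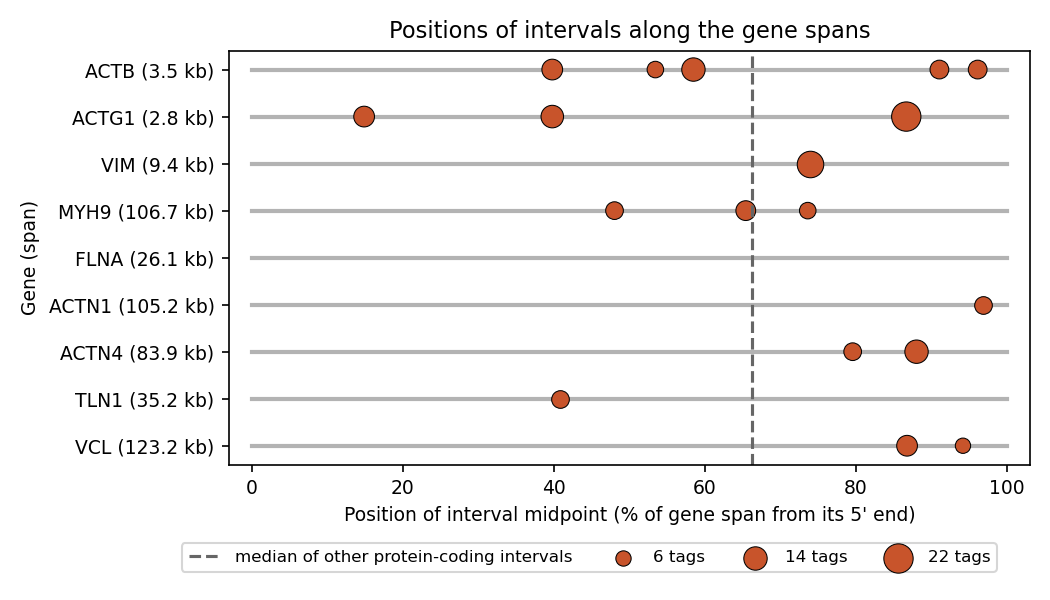
Each line is the span of a gene from its 5′ end (0%) to its 3′ end (100%), and each circle is an interval at its midpoint, with an area proportional to its height in pooled tags. The dashed line is the median position of intervals in other protein-coding genes, 66.2%; no interval lies in the first 10% of any of the 9 genes.

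VIM, the vimentin gene, held 1 interval, of 18 tags, at chr10:17235129-17235180 on the plus strand. It lay at 73.9% of a span of 9353 nt (chr10:17228241-17237593). This was the second tallest of the 18 intervals, yet it stood least above its background. The expected height was 1.03 tags, the highest of the 9 genes and rank 13 among the 1057 protein-coding genes with an interval, and the ratio was 17.5. No interval in protein-coding genes other than the 9 had an expected height of 1.03. The deposited p-value was 4.57e-09. The antisense gene VIM-AS1 overlaps the start of VIM and ends before the interval.

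MYH9, the heavy chain of nonmuscle myosin IIA, which contracts actin filaments, held 3 intervals on the minus strand in a span of 106688 nt (chr22:36281280-36387967). From the 5′ end they had 8 tags at chr22:36336713-36336754, 10 tags at chr22:36318173-36318214 and 7 tags at chr22:36309412-36309467. All were well inside the gene, at 48.0%, 65.4% and 73.6% of the span. They were spread out, with 18498 nt between the first and the second and 8705 nt between the second and the third. The heights were 72.7, 90.9 and 63.6 times the expected 0.11 tags, with deposited p-values of 1.52e-04, 2.98e-08 and 9.42e-03. The microRNA gene MIR6819 lies within MYH9, 22505 nt from the nearest interval.

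The alpha-actinins, which bundle actin filaments and anchor them at adhesions, held 3 intervals, all towards the 3′ end. ACTN4 held 8 tags at chr19:38714406-38714448 and 14 tags at chr19:38721503-38721545 on the plus strand, at 79.6% and 88.0% of its span (chr19:38647649-38731589). The heights were 72.7 and 127 times the expected 0.11 tags, with deposited p-values of 8.23e-05 and 2.93e-09. Both midpoints also lie within the span of LOC107985291, a long noncoding RNA gene whose strand the tables used here do not give, and the deposited list gives them under ACTN4 only. ACTN1 held 8 tags at chr14:68877522-68877561 on the minus strand, at 96.8% of a span of 105175 nt (chr14:68874128-68979302), 88.9 times the expected 0.09 tags. ACTN1 and ACTN4 thus had an interval of the same height, 8 tags, and ACTN4 had a taller one besides.

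The adhesion proteins differed in where their intervals lay. TLN1, talin, which activates integrins and links them to actin, held 8 tags at chr9:35717785-35717827 on the minus strand, at 40.8% of a span of 35248 nt (chr9:35696948-35732195). VCL, vinculin, which binds talin and actin, held 11 tags at chr10:74105019-74105061 and 6 tags at chr10:74114142-74114184 on the plus strand. These lay at 86.8% and 94.2% of a span of 123248 nt (chr10:73998116-74121363), 9080 nt apart. The interval of 6 tags was the lowest of the 18.

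Relative to the expected height, vinculin led the 9 genes. VCL had the lowest expected height of the 8 genes with an interval, 0.05 tags, and ratios of 220 and 120. Its deposited p-values were 1.00e-100 and 3.66e-03. At an expected height of 0.05 tags, intervals of other protein-coding genes had a median of 7 tags, beside 11 and 6 in VCL. The interval of TLN1 was 47.1 times the expected 0.17 tags, with a deposited p-value of 1.40e-03. The order by height, led by ACTG1 and VIM, was thus unlike the order by ratio, which VCL led and VIM closed.

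**Figure D2:**
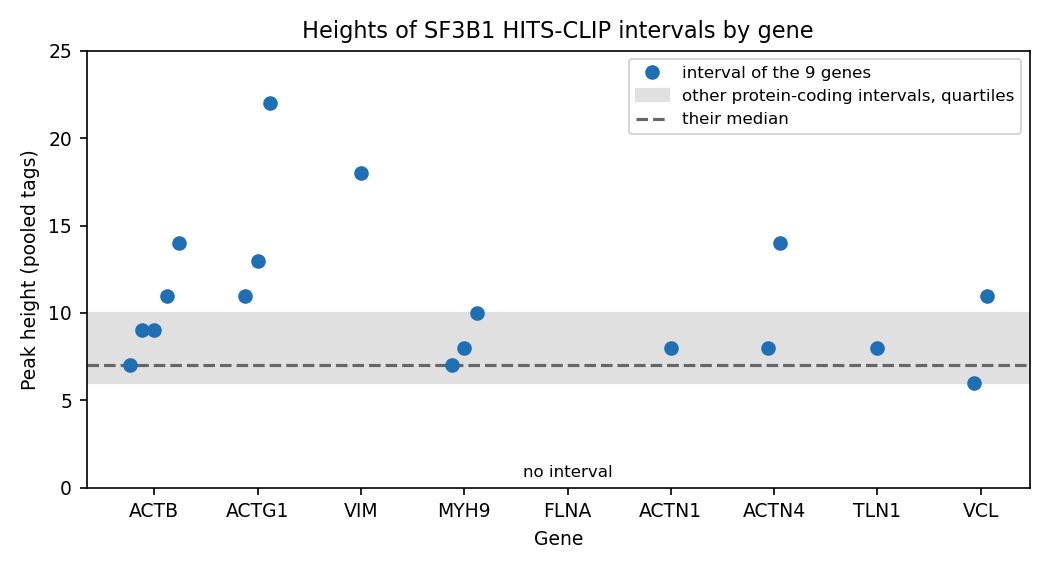
Points are single intervals, with the height in pooled tags on the vertical axis; the grey band and dashed line are the quartiles (6 and 10) and median (7) of 1288 intervals in other protein-coding genes. ACTG1 and VIM hold the tallest intervals, with 22 and 18 tags, and FLNA holds none.

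The 18 intervals had a median height of 9.5 tags (quartiles 8 and 12.5), and the 1288 intervals in other protein-coding genes had a median of 7 (quartiles 6 and 10). Of the 18, 15 (83.3%) were above the median of the whole list, 7 tags, as were 45.9% of the others. The expected heights moved with this: their median was 0.17 tags over the 18 intervals and 0.04 over the others. The median ratio of observed to expected height ran the other way, at 64.2 for the 18 intervals and 167 for the others with an expected height above 0.

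The lowest height listed was higher where more was expected. Among protein-coding genes other than the 9 it was 5 tags at an expected height of 0.05, 6 at 0.09, and 7 at 0.11 and at 0.17. Set against other genes of exactly the same expected height, which 17 of the 18 intervals had, 5 were taller than the median of those genes, 2 equalled it and 10 were lower. The taller 5 were 1 in ACTB, 1 in ACTG1, 1 in MYH9, 1 in ACTN4 and 1 in VCL. For ACTG1 that median rests on 1 other interval, of 13 tags. At matched expected height, most of the 18 were therefore not taller than intervals of other genes.

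The actin genes stood out by how densely intervals lay along them. ACTB had 1.45 intervals per kb of span, rank 1 of the 1057 protein-coding genes with an interval, and ACTG1 had 1.06, rank 3. MT2A, with 1 interval in 914 nt, was between them at 1.09, and RPL10 followed at 0.936. The other 6 genes with an interval ranged from 0.00951 per kb in ACTN1 to 0.107 in VIM, and the median over all 1057 was 0.0217. A gene with a short span has a high density from a single interval, so the counts in short genes are given as well. Of the 3210 protein-coding genes with a span under 5 kb, 35 held an interval (1.09%). Of these 35, 28 held 1, 1 held 2, and 6 held at least 3: ACTB, ACTG1, RPL10, RPL13A, SRSF2 and SRSF5. ACTB held the most.

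**Figure D3:**
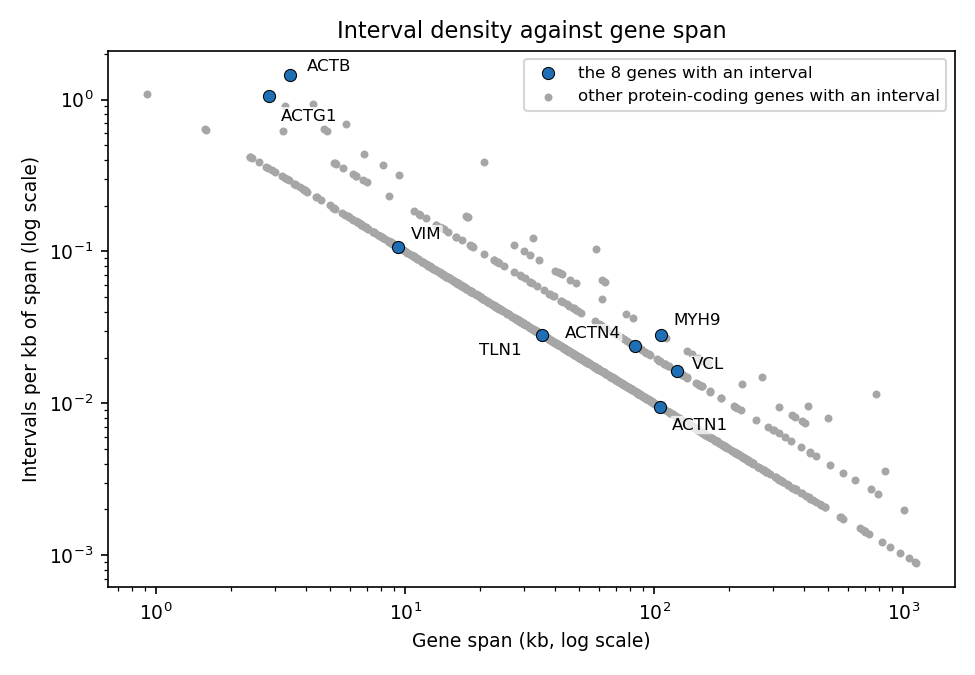
Intervals per kb are plotted against the gene span in kb, both on log scales, for the 8 genes with an interval (blue) and other protein-coding genes with an interval (grey); each diagonal is a fixed number of intervals. ACTB (1.45 per kb) is the highest point, and ACTG1 (1.06) has rank 3, after MT2A (1.09). SRSF2, which holds 3 intervals as ACTG1 does, lies on the same diagonal at 0.910. VIM, TLN1 and ACTN1 lie on the lowest diagonal, that of 1 interval.

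Distances between neighbouring intervals separated the actins from the long genes. In ACTB the gaps between intervals were 428, 131, 1079 and 131 nt from 5′ to 3′, and in ACTG1 658 and 1283 nt. In MYH9, ACTN4 and VCL they were 7054 to 18498 nt. Gaps under 1 kb made up 4 of the 10 (40.0%), all within the actins, and 65 of 248 gaps (26.2%) in other protein-coding genes. The median gap was 1181 nt in the 9 genes and 5215 nt in the others, and short genes allow short gaps only.

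Most intervals lay in the 3′ part of the gene, as they did in other genes. The median position was 73.8% of the span for the 18 intervals and 66.2% for the others, and 13 of 18 (72.2%) lay beyond the middle of the span against 66.9% of the others. The last 10% of the span held 4 of the 18 intervals (22.2%), 2 in ACTB, 1 in ACTN1 and 1 in VCL, and 17.3% of the others. The first 10% held 0 of the 18 and 5.51% of the others. The 5 intervals before the middle were 1 in ACTB, 2 in ACTG1, 1 in MYH9 and 1 in TLN1. Spans are genomic and include introns, whose share of the sequence differs between genes. Of the 13 intervals outside ACTB, none touched a promoter window of the RefSeq sequence table, from 250 bases before to 50 bases after a gene start. Of all 1406 intervals, 18 touched one. All 13 lay on the strand that table gives for the gene. ACTB had no entry in that table, so its promoter window and strand could not be checked against it.

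The intervals were alike in width. The median was 43 nt (38 to 56) for the 18 and 43 nt for the others, and 55.6% and 57.8% were 42 to 44 nt wide. Those of VCL, ACTN4 and TLN1 were all 43 nt wide. In ACTG1 they were 46, 47 and 38 nt wide, the last being the tallest of the 18 and also the narrowest.

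Most other genes of the actin cytoskeleton and of adhesions held no interval. In the 6 lists around the 9 genes, 17 of 128 genes did (13.3%, exact binomial 95% interval 7.93 to 20.4, counting error only), set beside 5.27% of all protein-coding genes. These lists, too, were chosen with earlier results known, and no enrichment was tested. Their 25 intervals had a median height of 8 tags. Among paralogs of the 9 genes, MYH10 and MYH14, the other nonmuscle myosin heavy chains, the muscle actins, ACTN2, ACTN3 and TLN2 held none; their transcript levels in this line were not measured.

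Among myosins and their regulators, 2 of 17 genes held an interval (11.8%), beside 5.27% of all protein-coding genes. They were MPRIP, which targets myosin phosphatase to actin, with up to 9 tags, and MYO18A with 8. Of 26 regulators of the filament, 3 held an interval (11.5%). These were WDR1, a cofactor of cofilin in filament disassembly, with 20 tags, CNN3 with 6 and CAP1 with 5. Cofilin, profilin, the tropomyosins and thymosin beta 4 were among the 23 with none. CTTN, cortactin, with 9 tags, was the only one of 16 nucleation genes with an interval (6.25%), a share near that of all protein-coding genes. The 6 listed ARPC subunits of the Arp2/3 complex were thus among those with none. Among 16 crosslinkers and membrane linkers, 4 held an interval: ANLN with 15 tags, DBN1 with 9, SPTBN1 with 8 and 7, and EZR with 7.

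Focal adhesion genes held intervals in 6 of 35 cases (17.1%), beside 5.27% of all protein-coding genes. ILK, the integrin-linked pseudokinase, reached 15 tags and ITGA3, an integrin chain that binds laminin, held 12, 10 and 10. ITGB4 held 10 tags, and ITGB1, PTK2 and LPP reached 6 each. The integrin beta 1 chain and the focal adhesion kinase PTK2 were thus no taller than the lower interval of VCL. Paxillin (PXN) and zyxin (ZYX) held none.

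**Figure D4:**
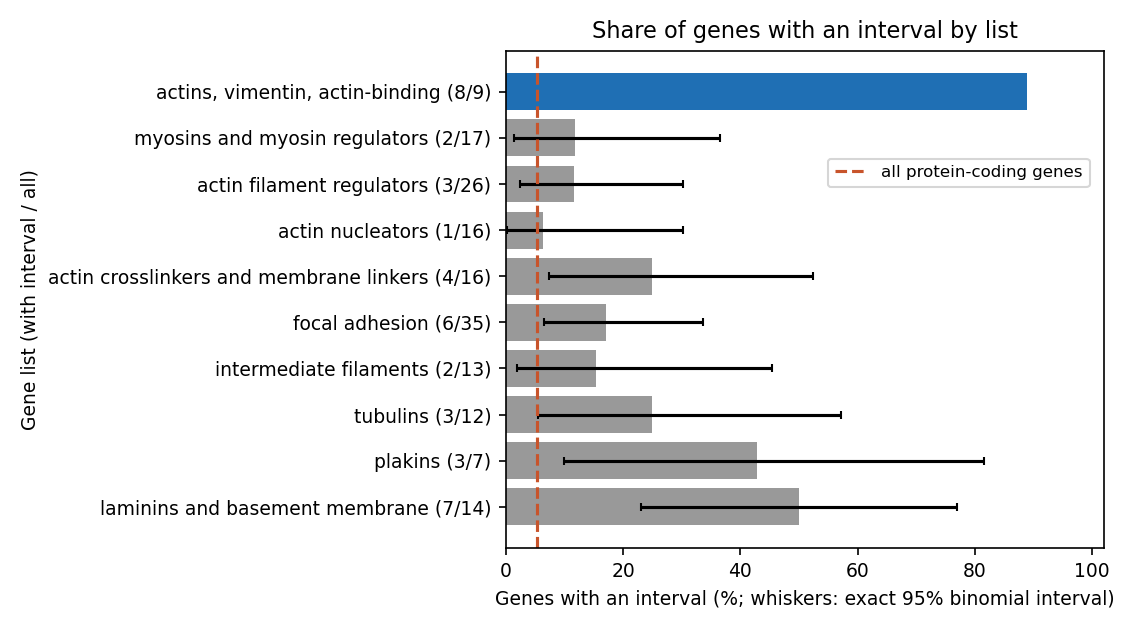
Bars give the percentage of genes with an interval in each list, with the number of genes in brackets; whiskers are exact binomial 95% intervals, left out for the 9 genes described because they were chosen by name. The dashed line is the 5.27% of all protein-coding genes, and 8 of 9 stands beside 6 of 35 for focal adhesion genes. The other lists were also chosen with earlier results of these data known, so their whiskers give counting error only. Paralogs of the 9 genes are not drawn.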

How the data were processed

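Sites of SF3B1 HITS-CLIP in 2 replicate libraries of MDA-231-LM2 cells were read from 1 deposited list. Per the file's name, the authors pooled the tags, kept unique tags and significant peaks, and bounded each interval at a set part of the peak height. The hg38 build, BWA 0.7.17 and cutadapt 2.3 are named, per the submitters' processing notes, and the peak caller and its threshold are not given in the sources used here. Heights are counts of pooled tags, deposited without normalization, and total tags per library are unknown, so no depth or floor is given. Expected heights and p-values are the authors' own.

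Gene numbers were named through the RefSeq table of GRCh38.p14 (1190 of 1191 matched). Rows that repeat an interval (identical coordinates and strand) were collapsed. The direction of a gene was taken from the interval's strand. The genes and the 10 related lists (174 entries, all matched) were chosen with earlier results of these data known. All 9 genes were named, and of each related list up to 5 genes with the tallest intervals; PTK2 and genes without an interval were named after their values were seen. No test was run. A result on the paralog list is not reported here. Medians of other genes used each interval in a protein-coding gene once. Assignment was tested on simulated intervals. Analyses ran in Python 3.11.15 with pandas 2.3.3, numpy 2.4.6, matplotlib 3.10.9 and scipy 1.17.1. Alternatives were a stricter p-value, heights above the median, other rules of assignment, merging, and other backgrounds.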

Additional observations from a re-analysis of the deposited data

How the results depend on the processing

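No paired analysis was possible because the list pools both replicates of the only group, and for the same reason no replicate could be left out. The number of intervals in the 9 genes was 15 to 18 and the number of these genes with an interval 8 under each of 5 alternatives: a deposited p-value under 0.01 (17 intervals), heights above the list's median (15), any overlap of 1 nt, gene numbers as listed, and merging within 50 nt (18 in each of these 3). VCL then held 1 interval, not 2, above the median height. The share of all protein-coding genes with an interval was 4.51% at a p-value under 0.01, 2.42% above the median height and 5.20% among genes with a span between 2829 and 123248 nt. Above the median height, the median of the 9 genes and of the others was the same, 11 tags. The 9 genes had a median of 9.5 tags and other intervals at the same expected heights, a background chosen after seeing the data, 8. That background was pooled without weighting, so it was not matched interval by interval. It held 64 intervals at an expected height of 0.05 tags, where only VCL of the 9 genes had intervals. Set against others of exactly the same expected height, most of the 18 intervals were not taller. With the tallest interval of each gene, the medians were 12.5 and 7 tags for height, 85.6 and 179 for the ratio, and 80.3% and 65.9% of the span for position. Taking the tallest favours genes with several intervals. At least 2 were held by 5 of the 9 genes and by 186 of the 1057 protein-coding genes with an interval. Genes of the 10 related lists with an interval numbered 32, and 23 to 32 under those 5 alternatives; of the 126 with a span in the range above, also chosen after seeing the data, 22 did (17.5%). How many tags lay below the authors' threshold, in FLNA or elsewhere, is unknown.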

Other observations

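Genes of other filament systems and of the matrix contact also held intervals, and these lists were chosen with earlier results known. Tubulins, the subunits of microtubules, held 1 interval each in 3 of 12 genes, with 10 tags in TUBB4B, 9 in TUBA1B and 8 in TUBA1C, beside 5.27% of all protein-coding genes with an interval. Of 13 genes of intermediate filaments other than vimentin, 2 held an interval, beside the same 5.27%: KRT7 with 16 tags and LMNA, a nuclear lamina gene, with 10. KRT8 and KRT18, the usual keratin pair of simple epithelia, held none. Copies of tubulins and keratins share sequence, and how tags that match several copies were treated is not known, so these genes may be undercounted.

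Plakins, a family of cytoskeletal linker proteins, held 10 intervals in 3 of 7 genes with a median of 9 tags. Laminins and other basement membrane genes held 14 intervals in 7 of 14 genes with a median of 11.5 tags. Both shares stand beside the 5.27% of all protein-coding genes with an interval. MACF1 reached 36 tags, taller than any interval of the 9 genes described above, and LAMA5 reached 23. The median gap between neighbouring intervals was 543 nt within the actins, 8294 nt in plakins and 3607 nt in the laminin list. All 10 intervals of plakins and all 14 of the laminin list lay beyond the middle of the span, as did 5 of 8 in the actins, 8 of 10 in the other genes described and 66.9% of the 1288 intervals in protein-coding genes other than the 9; these shares were not tested.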
